A study of Homo sapiens with 4 samples.

Results

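The HOXB locus of chromosome 17, which holds the homeobox genes HOXB1 to HOXB9 and, apart from them, HOXB13 itself, was examined for binding of the HOXB13 protein in LNCaP cells. LNCaP is a long-established human line of prostate cancer cells that respond to androgen. Binding had been measured by chromatin immunoprecipitation and sequencing in cells grown in RPMI1640 with 5% CSS and labelled as treated with 50 µM GSK2879552 (an LSD1 inhibitor, LSD1 being a histone demethylase) for 4 hours, or with vehicle. Each treatment had 2 sequencing lanes that the labels call technical replicates and 1 peak list for both lanes, so neither treatment had a replicate and the spread between cultures is unknown for every value given. For every sample the labels give 10% FBS as well as the 5% CSS. The treatment text names the inhibitor for every sample, so the vehicle group rests on its titles and descriptions. All coordinates of peaks are hg19 and counted from 1.

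The peaks described here are those whose summit lay in a window of 500 kb on chromosome 17, from 46.5 to 47 Mb. There were 37 in the GSK2879552 list, of 68049 on the placed chromosomes, and 5 in the vehicle list, of 3507. HOXB1 to HOXB9 span about 98 kb, from 46606000 to 46704000, and HOXB13 lies at 46802127 to 46806111, some 98.1 kb further towards the end of the long arm. In the RefSeq gene order, PRAC2 and PRAC1 are the coding genes between HOXB9 and HOXB13, SKAP1 is the coding neighbour beyond HOXB1, and TTLL6 and CALCOCO2 follow HOXB13. The nearest peaks outside the window, both in the GSK2879552 list, had summits 0.347 kb below it, with a fold enrichment of 3.86, and 36.0 kb above it, with 4.22.

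HOX genes encode homeodomain transcription factors that pattern the body axis of the embryo, and their order along a cluster follows the order in which they are expressed from head to tail. HOXB13 is the most posterior gene of the B cluster and is separated from the others by a long stretch without further HOX genes. It stays active in the adult prostate and in prostate cancer cells, where its protein binds DNA at sites that androgen receptor and FOXA1 often share. HOXB13 and the other HOXB genes are transcribed from the minus strand, so the end with the higher coordinate is the 5′ end of each gene.

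No genome of the hg19 build was used here, so the sequence under the peaks is not shown. RefSeq promoters (250 bases before to 50 after a gene's start, build GRCh38.p14) were at hand for 1 of the 10 HOXB members, HOXB1, and for 6 of 6 neighbouring genes searched (PRAC1, PRAC2 and HOXB-AS1 to HOXB-AS4), 9 promoters in all. They are shown for HOXB1, at one end of the cluster, and for HOXB-AS4, an antisense non-coding gene next to HOXB9 at the other. The HOXB-AS4 promoter shown had the most matches of the 9. Both strands were searched for CAATAAA and TCGTAAA, 2 forms of site that HOXB13 binds, TGTTTAC, a forkhead site, and AGAACA, a single arm of the site of the androgen receptor. Capitals mark matches on either strand.
HOXB1 promoter, chr17:48530962-48531261, minus strand: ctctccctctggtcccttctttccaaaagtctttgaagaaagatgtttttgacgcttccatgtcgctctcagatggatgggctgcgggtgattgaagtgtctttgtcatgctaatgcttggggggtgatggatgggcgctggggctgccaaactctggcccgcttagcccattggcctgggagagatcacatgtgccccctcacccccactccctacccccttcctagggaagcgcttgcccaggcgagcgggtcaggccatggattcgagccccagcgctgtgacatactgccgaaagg
HOXB-AS4 promoter, chr17:48628448-48628747, plus strand: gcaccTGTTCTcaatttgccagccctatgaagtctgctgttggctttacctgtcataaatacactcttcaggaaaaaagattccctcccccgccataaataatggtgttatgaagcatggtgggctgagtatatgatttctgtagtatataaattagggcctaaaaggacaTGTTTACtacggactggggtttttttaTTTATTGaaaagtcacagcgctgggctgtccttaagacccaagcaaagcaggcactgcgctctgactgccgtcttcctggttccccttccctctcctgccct
RefSeq gives HOXB-AS4 a pair of promoters, and only the one shown held matches, while the other held none. The one shown held CAATAAA, read on the other strand as TTTATTG at bases 199 to 205, TGTTTAC at bases 172 to 178, and AGAACA, read on the other strand at bases 6 to 11. None of these overlapped another. The HOXB1 promoter held no match, and of the 9 promoters the only other with a match was that of HOXB-AS2, with AGAACA. Among 35116 RefSeq promoters, 4.00% held CAATAAA, 0.541% TCGTAAA, 3.42% TGTTTAC and 14.8% AGAACA on either strand. A match describes letters only, and peaks could not be placed on these promoters because the builds differ.

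For each peak, the pileup (overlapping extended tags at the summit) and the local background were solved from the authors' deposited fold enrichment and p-value, which gave a whole pileup for 100% of peaks in both lists. The fold enrichment is the authors' value per peak and sets the summit against the local background that the peak caller used; whether that came from the same library or from a separate input was not stated in the labels. The commonest background, taken as the genome-wide one, came to 2.79 tags with GSK2879552 and 0.443 tags with vehicle, 6.31 times apart. This background rises with the number of tags and with the length to which they were extended. Those lengths were not given. The least peak width was 139 bp with GSK2879552 and 100 bp with vehicle. The factor of 6.31 may thus not be depth alone. The vehicle library could still show fewer peaks for reasons of depth, and depth and treatment cannot be told apart in the counts below. Intervals and the p-values behind the peaks cover counting error only, and amplified reads are not independent molecules.

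HOXB13 peaks were numerous in the window with GSK2879552, although unevenly spread. The 37 peaks made the window the one with the most GSK2879552 peaks among the 157 windows of 500 kb on chromosome 17 that held any peak. The other windows had a median of 14 (quartiles 11 and 18), and the next highest had 28. The 5 vehicle peaks put it second, level with the window from 18.5 to 19 Mb and below the 11 of the window from 22 to 22.5 Mb. The median local background at the vehicle peaks was 2.01 times the genome-wide one in the HOXB window, against 30.6 times in the window with 11. Of the other 156 windows, 76 held no vehicle peak. The position of the HOXB window is a description, since the locus was chosen with its peak number known.

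**Figure D1:**
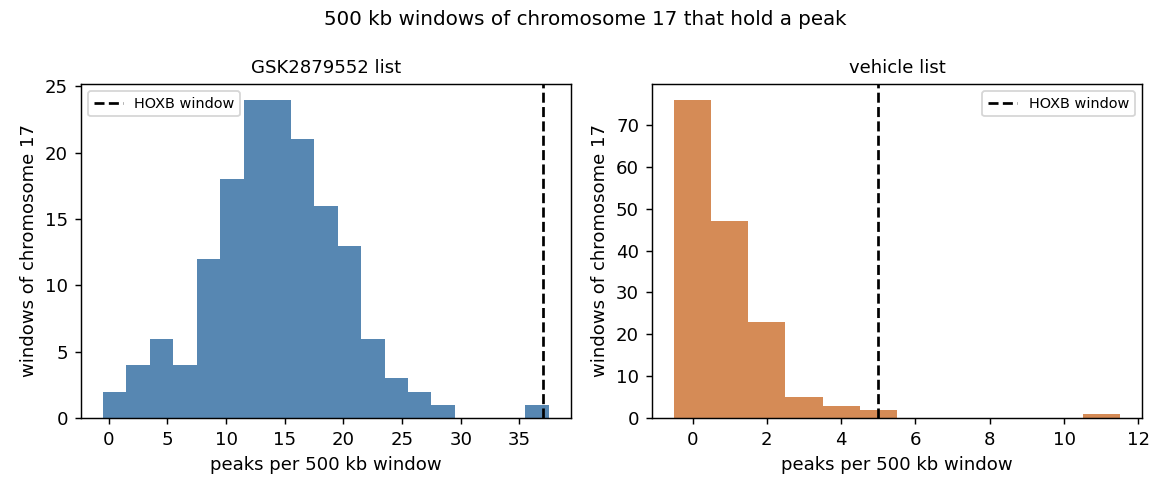
Number of HOXB13 peaks (horizontal axis) in each 500 kb window of chromosome 17 that held a peak, with the number of windows on the vertical axis, for the GSK2879552 list (left) and the vehicle list (right). The dashed line marks the HOXB window, at 37 GSK2879552 peaks, above every other window, and at 5 vehicle peaks, below 1 window with 11.

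Neighbouring windows were less dense. The window from 46 to 46.5 Mb held 23 GSK2879552 peaks and the one from 47 to 47.5 Mb held 16, and neither held a vehicle peak. Over the placed chromosomes, 17 of 5650 windows held more than 37 GSK2879552 peaks and 2 others held 37. For vehicle, 31 of 2177 windows with a peak held more than 5 and 22 others held 5. Peaks covered 8521 bp of the HOXB window in the GSK2879552 list and 870 bp in the vehicle list.

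Peaks were closer together than elsewhere on the chromosome, while the typical peak had a similar fold enrichment. Summits of neighbouring GSK2879552 peaks were a median of 6.98 kb apart in the window, against 21.0 kb on the rest of chromosome 17. The median fold enrichment was 4.41 (quartiles 3.88 and 6.04) in the window and 4.28 (quartiles 3.73 and 5.07) at the 2198 other GSK2879552 peaks of the chromosome, which placed the window 60th of 157. A fold enrichment of at least 5 was reached by 14 of the 37 peaks, 37.8% (exact 95% binomial interval 22.5 to 55.2), against 26.6% of the whole list and 28.5% (26.6 to 30.5) on the rest of chromosome 17. The interval of the window holds both of these shares. The median local background was 1.32 times the genome-wide one at the 37 peaks and 1.17 times on the rest of the chromosome. DNA copy number was not examined, and its part in the density was not tested.

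Of the stretches set by the gene spans, the HOXB1 to HOXB9 cluster had the highest density of GSK2879552 peaks. The cluster held 13 GSK2879552 peaks, or 13.3 per 100 kb, and 3 vehicle peaks. The stretch of nearly the same length between the cluster and HOXB13 held 6 and 1. The 194 kb above HOXB13 held 16 and 1, and the 106 kb below HOXB1 held 2 and none. For GSK2879552 these made 6.11, 8.25 and 1.89 per 100 kb. The borders at HOXB13 divide peaks that also stood close together, since 5 GSK2879552 summits lay within 10 kb of the gene. The longest distances between neighbouring GSK2879552 summits were 76.7 kb, below HOXB1, and 54.7 kb, above HOXB13. When chromosome 17 was divided into 828 stretches of the cluster's length, 1 had more than 13 GSK2879552 peaks, with 17, and 1 other had 13. The median of the 702 others with a GSK2879552 peak was 3.

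**Figure D2:**
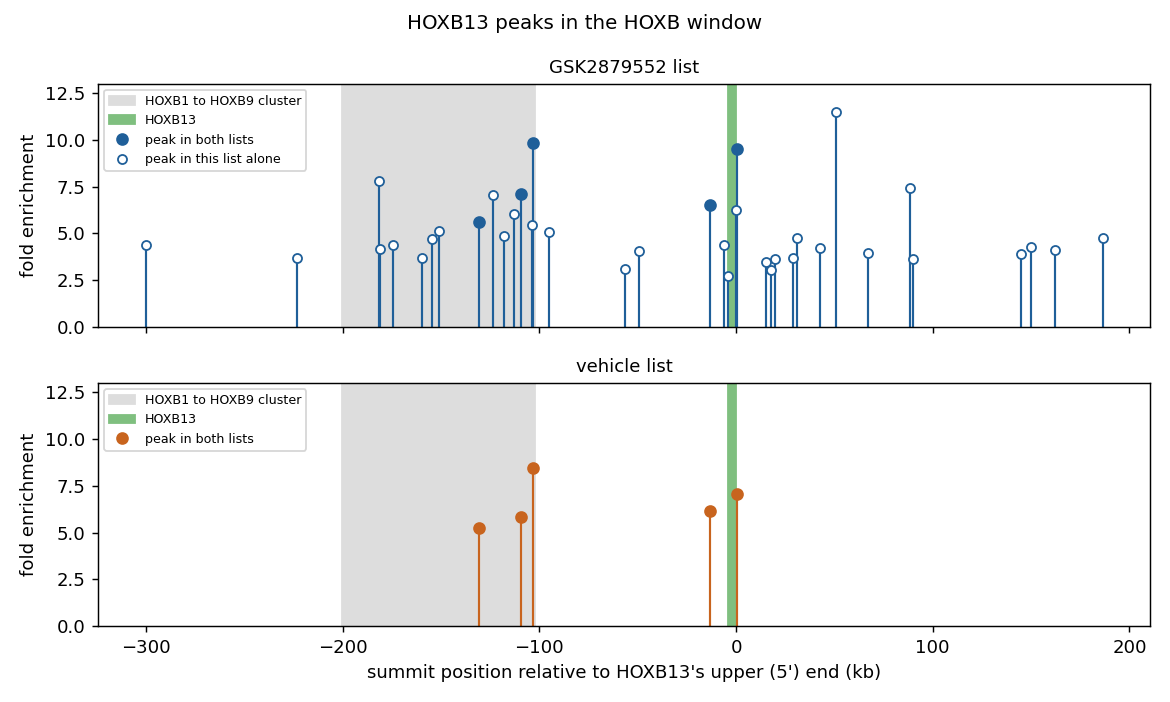
Fold enrichment (vertical axis, a ratio) of each HOXB13 peak against the distance in kb of its summit from the 5′ end of HOXB13, for the GSK2879552 list (top) and the vehicle list (bottom). Grey marks the HOXB1 to HOXB9 cluster and green HOXB13, filled circles are peaks with an overlapping peak in the other list, and the 5 vehicle peaks all lie at the HOXB9 side of the cluster or within 10 kb of HOXB13.

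Binding of HOXB13 was called at the 5′ end of its own gene. The strongest of all 37 GSK2879552 peaks by q-value lay there, at 46806399 to 46806759, with its summit 473 bp upstream of the gene's end. Its pileup was 69 and its local background 6.38, with a fold enrichment of 9.48 and a −log10 q of 41.7, which ranked 535th of 68049. The vehicle peak at the same place, 46806379 to 46806673, had a pileup of 14, a local background of 1.12, a fold enrichment of 7.08 and a −log10 q of 7.21, with its summit 434 bp upstream. This was the widest of the 5 vehicle peaks, 295 bp, and the 118th widest of the vehicle list.

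A second GSK2879552 peak stood on the 5′ end itself. It ran from 46806049 to 46806292, overlapped the gene by 63 bp and had its summit 44 bp upstream. Its pileup was 47 and its fold enrichment 6.23, and no vehicle peak overlapped it. The summits of these neighbours were 429 bp apart, the shortest distance in the window. No summit of either list fell between the ends of HOXB13, a stretch of 3985 bp.

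The opposite end of HOXB13 carried weaker peaks. A GSK2879552 peak at 46802066 to 46802204 overlapped the 3′ end by 78 bp and had a fold enrichment of 2.74, the lowest in the window. Its pileup of 24 was above the window's median of 21, while its local background of 8.13 was the highest of the 37. Another lay 1968 bp beyond that end, on the side where PRAC1 and PRAC2 lie, at 46800067 to 46800266, where the fold enrichment was 4.36 and the pileup 30. Neither had a vehicle peak.

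Farther downstream, 9.06 kb from the 3′ end of HOXB13, both lists had a peak. The GSK2879552 peak at 46792944 to 46793192 had a pileup of 37 and was enriched 6.49-fold. The vehicle peak at 46793021 to 46793121 had a pileup of 10 and was enriched 6.15-fold. Their summits were 4 bp apart, the closest agreement of position among the shared sites. Between this site and the cluster the GSK2879552 list had only 3 peaks, with fold enrichments of 4.08, 3.10 and 5.05. The one with 3.10, at 46749505 to 46749648, was the weakest of the window by q-value, with a −log10 q of 2.13 and a pileup of 12.

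At the HOXB1 to HOXB9 cluster, the peaks found in both lists lay towards HOXB9, the most posterior gene of that group. HOXB1 to HOXB4 are anterior genes active in the hindbrain of the embryo, and HOXB9 acts in the trunk. Beyond the midpoint of the cluster, on the HOXB9 side, there were 8 GSK2879552 peaks with a median fold enrichment of 5.82 (range 4.85 to 9.84) and all 3 vehicle peaks. On the HOXB1 side there were 5 GSK2879552 peaks with a median of 4.41 (range 3.69 to 7.82) and no vehicle peak. The numbers of GSK2879552 peaks are not firm, because the ends of the cluster are approximate and 1 summit lay 41 bp beyond the midpoint; counted on the other side it gives 7 and 6. The lowest 18.6 kb of the cluster, where HOXB1 lies, held no summit. The fold enrichments of the 2 sides overlapped. Pileup differed too. Of all GSK2879552 peaks with a pileup within 5 tags of a HOXB1-side peak, 0.547% to 18.6% had a vehicle peak. For the HOXB9-side peaks these shares were 2.13% to 54.5%.

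The site of highest fold enrichment in the cluster was at its HOXB9 end. The GSK2879552 peak at 46702946 to 46703301 had a pileup of 57, a fold enrichment of 9.84 and a −log10 q of 35.8. The vehicle peak at 46702995 to 46703218 had a pileup of 15, a fold enrichment of 8.47 and a −log10 q of 9.71, the highest values of the 5 vehicle peaks. Both summits were within 0.936 kb of the end of the span, 61 bp apart. A further GSK2879552 peak, with a fold enrichment of 5.47, had its summit 445 bp away, so that HOXB9's end and the 5′ end of HOXB13 each carried a close pair of peaks, one of them shared with vehicle. Another such pair, 480 bp apart, lay 18.6 kb above the HOXB1 end, with fold enrichments of 7.82 and 4.16 and no vehicle peak. These 3 were the distances under 1 kb among 36, a share of 8.33%, against 5.42% on the rest of chromosome 17.

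Further inside the HOXB9 end were a shared site, at 7.02 kb, and a broad one, at 10.7 kb. No hg19 spans of the single genes HOXB1 to HOXB9 were at hand, so neither was assigned to a gene. The GSK2879552 peak at 46696854 to 46697113 had a pileup of 58 and a fold enrichment of 7.11. Its vehicle peak at 46696884 to 46697033 had a pileup of 11 and a fold enrichment of 5.83. The widest peak of the window, 631 bp from 46692825 to 46693455, was 448th by width among all GSK2879552 peaks. It had a pileup of 54, was enriched 6.04-fold, and no vehicle peak overlapped it. A peak at 46682357 to 46682536, also in the GSK2879552 list alone, was enriched 7.04-fold at a pileup of 30.

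The weakest of the shared sites was deeper in the cluster, 28.4 kb from the HOXB9 end. The GSK2879552 peak at 46675386 to 46675763 had a pileup of 23 and a fold enrichment of 5.61. The vehicle peak at 46675517 to 46675616 had a pileup of 7, a fold enrichment of 5.26 and a −log10 q of 3.02. At 100 bp it was as narrow as the narrowest vehicle peaks of the list.

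Upstream of HOXB13, away from the cluster, the highest fold enrichment of the window stood without a vehicle peak. It lay 50.9 kb from the 5′ end of HOXB13, at 46856781 to 46857154, on the side where TTLL6 lies. No hg19 spans of the neighbouring genes were at hand, so whether this peak fell inside TTLL6 could not be told. Its fold enrichment of 11.5 ranked 330th of the list, its pileup was 58 and its −log10 q 40.7. A peak 88.5 kb upstream, at 46894450 to 46894672, was enriched 7.45-fold at a pileup of 34, again in the GSK2879552 list alone. The other 12 peaks more than 1 kb upstream of HOXB13 had fold enrichments of 3.03 to 4.75.

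Of the 37 GSK2879552 peaks, 5 had an overlapping vehicle peak, a share of 13.5% (4.54 to 28.8), against 4.59% of the whole GSK2879552 list. All 5 vehicle peaks had a GSK2879552 peak, against 91.2% of the whole vehicle list, which the interval for 5 of 5 peaks (47.8 to 100%) holds. On the rest of chromosome 17, 5.64% (4.71 to 6.69) of GSK2879552 peaks had a vehicle peak, which the interval of the window holds. The share in the list as a whole depended on pileup, so each peak was also set beside all GSK2879552 peaks whose pileup was within 5 tags of its own. Added over the 37 peaks, those shares came to 4.17 peaks with a vehicle peak, against the 5 found.

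**Figure D3:**
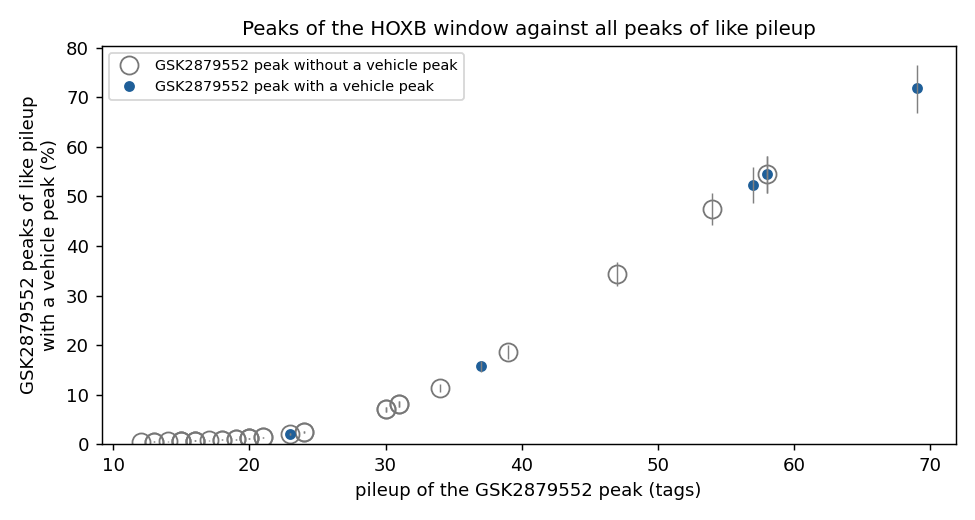
Share in percent of all GSK2879552 peaks of like pileup (within 5 tags) that had a vehicle peak, against the pileup in tags, for each of the 37 GSK2879552 peaks of the HOXB window. Bars are exact 95% binomial intervals, filled circles are peaks with a vehicle peak and open circles those without, and the shares run from 0.468% at a pileup of 12 to 71.9% at 69.

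Peaks of higher pileup had a vehicle peak more often. At a pileup above 50, 3 of 5 peaks had a vehicle peak, from 30 to 50 it was 1 of 8, and below 30 it was 1 of 24. For the peak upstream of HOXB13's start, of pileup 69, 71.9% of like peaks had one. For the peak 50.9 kb upstream of HOXB13, which had none, the share was 54.5% (50.7 to 58.3). For the broad site 10.7 kb inside the HOXB9 end, which also had none, it was 47.5% (44.3 to 50.8). Many peaks of their height thus lacked a vehicle peak too. The peak 28.4 kb inside the HOXB9 end had a vehicle peak although 2.13% (1.96 to 2.31) of peaks of like pileup did.

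At the 5 shared sites, the order of the libraries depended on the scale. The authors' fold enrichment, over the local background of each peak, was 5.61, 7.11, 9.84, 6.49 and 9.48 with GSK2879552, and 5.26, 5.83, 8.47, 6.15 and 7.08 with vehicle, so it was higher with GSK2879552 at each site. Before dividing, it adds 1 tag to the pileup and 1 to the background. Vehicle local backgrounds here were 0.52 to 1.12 tags, against 3.28 to 7.30 with GSK2879552, so the added tag lowered the vehicle values more. Without it, pileup over local background was lower with GSK2879552 at each site. The GSK2879552 pileups, in order along the chromosome, were 23, 58, 57, 37 and 69, and the vehicle pileups 7, 11, 15, 10 and 14. The pileup divided by the genome-wide background of its library was 8.23, 20.8, 20.4, 13.2 and 24.7 with GSK2879552, and 15.8, 24.9, 33.9, 22.6 and 31.6 with vehicle. On this scale GSK2879552 was lower at each of the 5 sites, the reverse of the fold enrichment, with a median ratio of 0.602 (range 0.521 to 0.835). The 3194 shared vehicle peaks elsewhere had a median ratio of 0.634 (quartiles 0.446 and 0.832). Sites enter only if vehicle passed its threshold, which favours low ratios. A difference between the lists in the length to which tags were extended could also shift the ratio at every site. Those lengths were not given, and none of these scales gives a direction between the treatments.

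**Figure D4:**
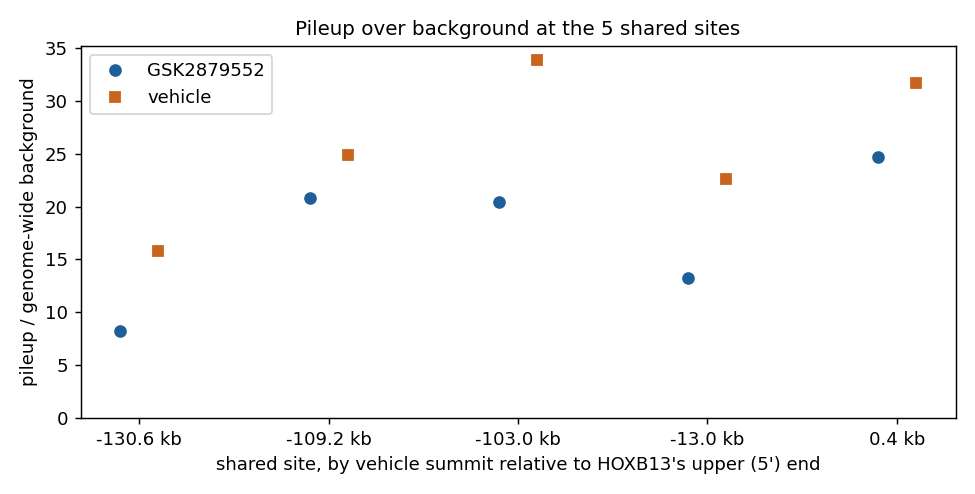
Pileup at the summit divided by the genome-wide background of the library (vertical axis, a ratio) at the 5 sites with peaks in both lists, ordered by the distance in kb of the vehicle summit from the 5′ end of HOXB13. Circles are GSK2879552, from 8.23 to 24.7, and squares vehicle, from 15.8 to 33.9, 1 value per library with no error bar because there is no replicate.

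Local background was highest at HOXB13 and in the part of the cluster towards its HOXB9 end. With GSK2879552, 7 of the 37 peaks had a local background 2 or more times as high as the genome-wide value, against 5.78% of the whole list and 4.00% of the peaks on the rest of chromosome 17. These were 3 peaks 7.02 to 15.7 kb inside the HOXB9 end, with 2.01 to 2.90 times, and 4 at HOXB13, with 2.18 to 2.91 times. The 4 ran from 1968 bp beyond the 3′ end of HOXB13 to 473 bp upstream of its 5′ end. The peaks closest to the HOXB9 end of the cluster had 1.74 and 1.75 times. In the vehicle list the site 7.05 kb inside the HOXB9 end and the one at the 5′ end of HOXB13 had the highest values, 2.40 and 2.53 times. The fold enrichment divides by this background. Peaks lay close together at both places, and whether tags of neighbouring peaks entered the local background was not tested. The shared site 7.02 kb inside the HOXB9 end and the peak 50.9 kb upstream of HOXB13 both had a GSK2879552 pileup of 58. Their backgrounds were 2.61 and 1.48 times the genome-wide one and their fold enrichments 7.11 and 11.5.

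Apart from the shared peaks, those near HOXB13, the 10 of highest fold enrichment and the weakest by q-value, the other 23 GSK2879552 peaks had fold enrichments of 3.03 to 5.47 and pileups of 13 to 31. Among all 37, 10 ranked in the top 10% of the GSK2879552 list by −log10 q and 8 by fold enrichment, while 5 had the least width called, 139 bp, against 10.9% of the whole list. Expression of the HOXB genes was not measured in these data.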

How the data were processed

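Groups came from sample titles. Per the submitters' processing notes, MACS2 2.1.2, BWA 0.7.2 and SAMtools 0.1.18 were used with hg19 (GRCh37), each tool listed without its role. An input control and the calling options were not given in the sources used here. Per the file layout, the authors deposited for each peak a score (10 times the −log10 q cut to a whole number, true of 100% of rows), a fold enrichment (ratio), a −log10 p, a −log10 q and a summit offset in bp. Per the labels, 1 list served both lanes. Peaks outside the 24 placed chromosomes, 676 and 215, were left out. From the deposited values, pileup k and background λ were solved per peak as the whole k whose Poisson −log10 p fits the deposited one within 0.001 when fold = (k + 1)/(λ + 1) (pseudocount 1; SciPy 1.17.1, pandas 2.3.3). The genome-wide background was the commonest λ. On 2000 simulated peaks per list the solver returned the known pileup for 99.9% (GSK2879552) and 99.8% (vehicle). Gene spans came from the definition of the locus and gene order from RefSeq (GRCh38.p14). Overlap meant at least 1 bp. With no replicates, no test between treatments was made. Named peaks were the vehicle peaks and their partners, GSK2879552 peaks within 10 kb of HOXB13, the 10 of highest fold enrichment and the weakest by q. Close pairs, cluster sides, like-pileup shares and stretches of the cluster's length were added after values had been seen. Members, lists and rules were chosen with earlier results of these data known. Alternatives were stricter thresholds, other overlaps, lists of equal length, other tilings and covered length.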

Additional observations from a re-analysis of the deposited data

How the results depend on the processing

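No paired analysis was possible because the lanes of a treatment share 1 peak list, and for the same reason no lane could be left out. The window kept the most GSK2879552 peaks of chromosome 17 under each of the 5 alternatives tried (stricter q, stricter fold, shifted tiling, covered length, and windows of high local background left out). By vehicle peaks it was 2nd. It came 1st at a fold enrichment of at least 5 and without windows of high background, each time level with 1 other. At a −log10 q of at least 5 it was 3rd, level with 5 others. It was also 3rd by covered length, and 4th with the shifted tiling, level with 1 other. At a −log10 q of at least 5 the window held 22 GSK2879552 and 2 vehicle peaks, and 3 GSK2879552 peaks between the cluster and HOXB13. At a fold enrichment of at least 5 it held 14 GSK2879552 peaks, 2 of them in that stretch. The share of GSK2879552 peaks with a vehicle peak, 13.5% as reported, was 35.7% at that fold enrichment (interval 12.8 to 64.9, whole list 12.0%). It was 42.9%, 3 of 7, when the GSK2879552 list was shortened to the length of the vehicle list (9.90 to 81.6, whole list 48.5%). At a −log10 q of at least 5 in both lists it was 9.09% (1.12 to 29.2, whole list 3.61%). When each peak had to cover 50% of the other it was 8.11% (1.70 to 21.9, whole list 1.54%). The intervals at that fold enrichment and at 50% cover began just above the whole-list shares, and rest on 5 and 3 shared peaks. The cause of these shifts was not tested. With 5 vehicle peaks and pileups of 7 to 15, depth limits every statement on the vehicle library.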
